A study of Mus musculus with 14 samples.

Results

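The sites bound by EBF1 dC and by the chromatin remodelling ATPase Brg1 were compared in a single mouse pro-B cell line. The members were all 11147 EBF1 peaks and all 24420 Brg1 peaks called on chromosomes 1 to 19, X and Y of that line, 35567 of the 196179 peaks in the 9 lists of the study. An EBF1 peak was called co-occupied when it shared at least 1 bp with a Brg1 peak. By this rule 5138 EBF1 peaks had Brg1 and 6009 did not, and 5342 Brg1 peaks had EBF1 and 19078 did not.

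The dC line came from C57BL/6 EBF1 fl/fl fetal liver cells transformed with the Abelson murine leukaemia virus (A-MuLV), and its endogenous EBF1 had been replaced by EBF1 dC, which lacks the C-terminal domain, from a pMys retroviral construct that also encodes GFP. The wt line, used for comparison, was made in the same way with full-length EBF1. Brg1 was precipitated after crosslinking with EGS and 1% formaldehyde, and EBF1 after 1% formaldehyde alone. Another 5 Brg1 libraries came from C57BL/6 EBF1 -/- c-kit+ progenitors of fetal livers of day 16 to 18, grown on OP9 stroma for 14 to 20 days and fixed with EGS and 2% formaldehyde. They carried wt, dC, dPLD (a deletion inside that domain), F-GATA3 (the domain exchanged for a GATA3 activation domain) or an empty vector. The labels place the dC and dPLD cells as partly blocked, and the empty-vector cells as blocked, before the pro-B stage. Each group had 1 library and the labels do not say whether a line is 1 clone, so intervals below cover counting error only and no difference between libraries was tested. Peaks show where a protein was found and not which genes were expressed, so the labelled cell type could not be checked by expression, and gene lists of B cells and other lineages stand in its place.

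EBF1 is a transcription factor needed for commitment to the B lineage. It binds DNA as a dimer at a palindromic site, switches on genes such as Cd79a, Igll1 and Pax5, and can bind closed chromatin, an ability to which its C-terminal domain contributes. Brg1, encoded by Smarca4, is the ATPase of the BAF and PBAF complexes, which slide or evict nucleosomes at promoters and enhancers.

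Start-site sequences of each class are printed. Those with an EBF1 summit were chosen because they carry an EBF1-type palindrome, TCCC and GGGA with any 2 bases between them. Those of Brg1 alone were taken with or without it. Each is the 250 bases before a transcription start and holds the summit named, from RefSeq on GRCm38 patch 6, printed 5′ to 3′ on the strand of the gene, with capitals marking each match to the palindrome. The searched motif reads the same on both strands and contains the shorter form CCCNNGGG. Among co-occupied windows, Foxo1 encodes a transcription factor that activates the recombinase genes, Vps26a a retromer subunit, Sdc4 the heparan sulphate proteoglycan syndecan 4, and Ppm1a a protein phosphatase. They lie at chr3:52268087-52268336 (+), chr10:62486806-62487055 (-), chr2:164443189-164443438 (-) and chr12:72760961-72761210 (+).
Foxo1: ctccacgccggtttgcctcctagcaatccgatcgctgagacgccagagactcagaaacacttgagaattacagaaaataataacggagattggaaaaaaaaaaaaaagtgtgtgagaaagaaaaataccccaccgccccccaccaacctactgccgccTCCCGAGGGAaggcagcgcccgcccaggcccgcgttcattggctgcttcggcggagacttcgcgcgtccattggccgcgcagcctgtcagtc
Vps26a: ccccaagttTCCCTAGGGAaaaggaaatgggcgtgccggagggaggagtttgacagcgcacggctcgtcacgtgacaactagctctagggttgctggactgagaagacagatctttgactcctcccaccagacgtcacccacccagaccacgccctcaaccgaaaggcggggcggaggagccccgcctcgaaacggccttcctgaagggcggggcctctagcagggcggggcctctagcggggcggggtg
Sdc4: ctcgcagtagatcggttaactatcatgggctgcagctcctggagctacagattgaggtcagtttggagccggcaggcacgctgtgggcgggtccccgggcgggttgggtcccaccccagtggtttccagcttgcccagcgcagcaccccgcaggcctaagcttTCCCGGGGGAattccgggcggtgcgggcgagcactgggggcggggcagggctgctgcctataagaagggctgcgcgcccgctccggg
Ppm1a: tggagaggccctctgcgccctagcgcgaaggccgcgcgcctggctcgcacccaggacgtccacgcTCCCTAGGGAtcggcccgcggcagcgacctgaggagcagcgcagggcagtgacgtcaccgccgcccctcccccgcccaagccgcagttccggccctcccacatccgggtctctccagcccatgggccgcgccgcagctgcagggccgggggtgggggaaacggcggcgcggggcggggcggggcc
EBF1 alone was called over the windows of Mterf2, a mitochondrial transcription termination factor, Ankrd63, an ankyrin repeat gene, and Il2rg, the common gamma chain of the receptors for IL-2 and IL-7. These lie at chr10:85128028-85128277 (-), chr2:118703964-118704213 (-) and chrX:101268256-101268505 (-).
Mterf2: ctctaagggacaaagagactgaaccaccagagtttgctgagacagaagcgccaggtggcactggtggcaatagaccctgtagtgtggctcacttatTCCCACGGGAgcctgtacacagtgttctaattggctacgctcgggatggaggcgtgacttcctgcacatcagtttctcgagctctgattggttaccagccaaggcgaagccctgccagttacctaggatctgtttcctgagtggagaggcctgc
Ankrd63: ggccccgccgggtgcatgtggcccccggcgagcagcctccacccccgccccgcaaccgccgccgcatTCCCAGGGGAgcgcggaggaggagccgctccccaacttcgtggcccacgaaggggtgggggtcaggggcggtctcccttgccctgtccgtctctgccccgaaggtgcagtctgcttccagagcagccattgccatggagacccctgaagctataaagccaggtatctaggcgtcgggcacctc
Il2rg: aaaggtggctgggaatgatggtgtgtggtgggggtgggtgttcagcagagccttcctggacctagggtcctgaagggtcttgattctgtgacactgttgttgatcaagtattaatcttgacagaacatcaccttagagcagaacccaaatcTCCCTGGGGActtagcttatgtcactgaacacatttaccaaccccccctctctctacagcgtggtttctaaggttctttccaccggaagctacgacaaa
Brg1 alone was called over the windows of Smarcc1, a core BAF subunit, and Myb, a transcription factor of progenitors, at chr9:110131774-110132023 (+) and chr10:21160985-21161234 (-), and neither holds the motif.
Smarcc1: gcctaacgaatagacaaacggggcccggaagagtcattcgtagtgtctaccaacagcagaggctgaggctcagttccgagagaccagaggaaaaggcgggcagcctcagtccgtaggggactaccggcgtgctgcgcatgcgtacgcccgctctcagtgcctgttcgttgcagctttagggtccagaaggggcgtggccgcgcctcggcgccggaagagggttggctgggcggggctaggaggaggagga
Myb: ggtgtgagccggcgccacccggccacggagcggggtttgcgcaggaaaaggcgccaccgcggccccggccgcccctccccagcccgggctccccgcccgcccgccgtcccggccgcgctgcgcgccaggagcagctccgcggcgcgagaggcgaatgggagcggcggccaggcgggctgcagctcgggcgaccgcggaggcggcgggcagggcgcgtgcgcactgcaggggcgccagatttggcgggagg
The centre of the motif lay 10.5 bp from the EBF1 summit at Foxo1, 13.5 bp at Vps26a, 10.5 bp at Sdc4 and 14.5 bp at Ppm1a. Where EBF1 was called without Brg1, it lay 0.5 bp from the summit at Mterf2, 11.5 bp at Ankrd63 and 19.5 bp at Il2rg. The palindrome therefore sat close to the EBF1 summit in all 7 windows, which were chosen for holding both. EBF1 fold, the enrichment at the summit over local background as the authors' peak caller gives it, was 16.3 at Foxo1, 31.1 at Vps26a, 28.3 at Sdc4 and 23.0 at Ppm1a, and Brg1 fold was 7.60, 7.24, 8.31 and 6.52 there. EBF1 fold was 34.2 at Mterf2, 20.5 at Ankrd63 and 11.0 at Il2rg.

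Brg1 was called at 46.1% of all EBF1 dC peaks (5138 of 11147, exact 95% interval 45.2 to 47.0), and EBF1 dC at 21.9% of all Brg1 peaks (5342 of 24420, 21.4 to 22.4). The EBF1 list covered 4.83 Mb and the Brg1 list 10.9 Mb. On the autosomes the share of EBF1 peaks with Brg1 ran from 40.0% on chromosome 5 to 49.6% on chromosome 17. On the X chromosome it was 29.3% (27 of 92 peaks, 20.3 to 39.8). In the wt line, 72% of 6155 EBF1 peaks had Brg1 (4430 peaks, 70.8 to 73.1). The wt EBF1 list is shorter, and the 6155 dC peaks of highest −log10 q had Brg1 in 59.4% (58.2 to 60.6).

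The share depended on where the Brg1 list was cut. The Brg1 list reached down to a −log10 q of 1.33, whereas no EBF1 dC peak was below 10.0. Holding both lists to −log10 q values of 10 or more left Brg1 at 21.1% of EBF1 dC peaks and EBF1 at 40.8% of the 5634 remaining Brg1 peaks. The Brg1 list of the wt line was the stronger, with 7177 peaks at that cut and 12.3 Mb covered before it. The share of EBF1 wt peaks with Brg1 was not computed at that cut, so differences between the lines below also carry this difference between Brg1 lists.

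Stronger EBF1 peaks more often had Brg1. In the lowest of 10 bins of EBF1 fold 31.1% of dC peaks had Brg1 (28.7 to 33.5), and in bin 5 40.2% did. In the highest bin, from a fold of 19.4, the share reached 84.3% (82.0 to 86.4). The wt line was above the dC line in every bin, with 54.7% in its lowest and 97.2% in its highest bin. Median EBF1 fold was 11.0 with Brg1 (quartiles 7.71 and 16.7) and 7.67 without (6.58 and 9.88), so the ranges overlapped widely. Co-occupied EBF1 peaks were also wider, with a median of 458 bp against 349 bp, and a wider peak has more bases to overlap. From the Brg1 side, 12.4% of peaks had EBF1 in the lowest and 52.5% in the highest bin of Brg1 fold. Within co-occupied sites the heights of both proteins were only loosely related (Spearman's rho 0.20 over 5138 sites of the same pair of libraries, given as a description).

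**Figure D1:**
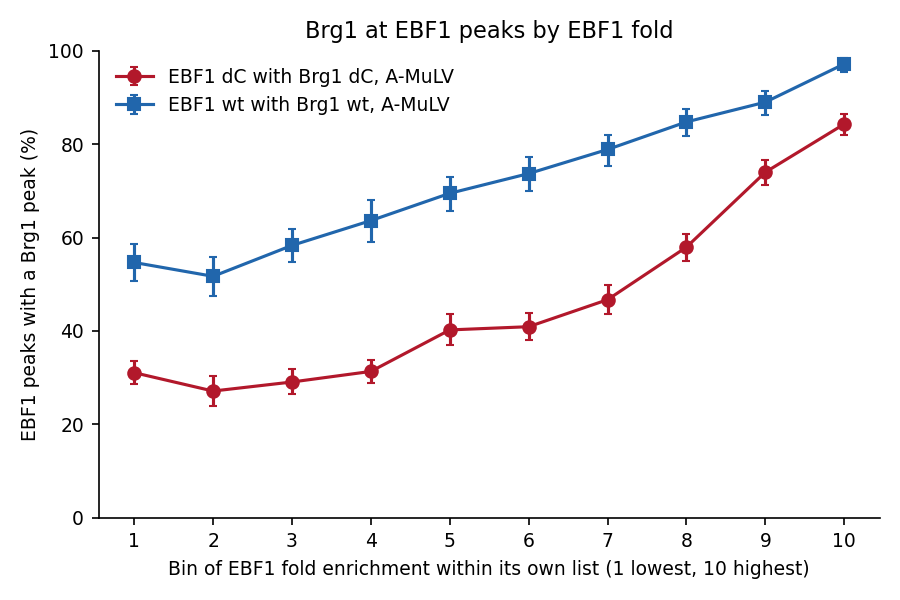
Share of EBF1 peaks with a Brg1 peak (y axis, %) in 10 bins of EBF1 fold within each list (x axis), for the dC line (circles) and the wt line (squares); bars are exact 95% intervals of counting error. The dC line went from 31.1% to 84.3% and lay below the wt line in every bin.

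The summits of both proteins lay close together. The distance from the EBF1 summit to the nearest summit of the Brg1 peaks it met had a median of 62 bp, with quartiles of 25 and 163 bp. It was within 50 bp at 43.6%, within 100 bp at 63.4% and within 500 bp at 95.4% of the 5138 sites. The overlap rule itself limits this distance, since median widths were 458 bp for these EBF1 peaks and 478.5 bp for Brg1 peaks with EBF1. The EBF1 summit fell inside a Brg1 peak at 89.2% of sites, so edge contacts were few, with an overlap under 50 bp at 53 sites. Brg1 summits lay on either side, at a higher coordinate in 48.2% and a lower one in 51.1%. In all, 281 EBF1 peaks met 2 or more Brg1 peaks, and at 196 of these Brg1 summits flanked the EBF1 summit on both sides. In the wt line the median distance was 40 bp. The strongest EBF1 peaks were closest to Brg1, with a median of 42 bp in the highest of 4 bins of EBF1 fold against 81 bp in the lowest. EBF1 peaks without Brg1 overlapped none of its peaks by definition. Their nearest Brg1 summit was a median of 15653 bp away, within 1000 bp at 7.61% and within 10000 bp at 40.4%.

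Distance to a transcription start separated the classes. A summit lay within 1 kb of a start at 27.6% of co-occupied EBF1 peaks (26.4 to 28.9), 6.35% of EBF1 peaks without Brg1 (5.74 to 7.01) and 38.1% of Brg1 peaks without EBF1 (37.4 to 38.8). Of the EBF1 dC peaks within 1 kb of a start, 78.9% had Brg1 (1384 of 1755, 76.9 to 80.7), and of those farther away 39.9% did (3625 of 9096, 38.8 to 40.9). The gap was widest at weak EBF1 peaks, with 70.9% against 22.7% in the lowest of 4 bins of EBF1 fold, and 88.6% against 71.0% in the highest. In the wt line the shares were 88.4% near starts and 69.6% away from them. Brg1 is common at starts in any case: 34.1% of all 21237 RefSeq start windows held a Brg1 dC peak, 85.6% of the 1396 windows with an EBF1 dC peak and 30.4% of the others.

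This order did not hold when only the strongest peaks of both lists were kept. When both lists were held to −log10 q values of 10 or more, Brg1 was at 34.2% of EBF1 peaks near starts and 18.6% of those farther away, and from 20 upwards the order turned, with 6.61% and 11.6%. Median Brg1 fold at co-occupied sites was 6.22 near starts and 6.25 away from them, with upper quartiles of 7.61 and 8.56.

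**Figure D2:**
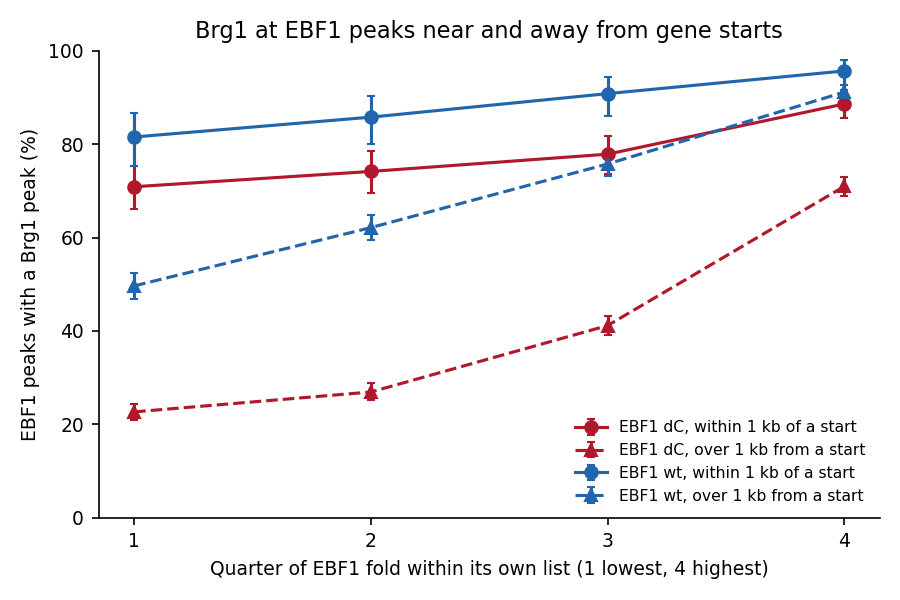
Share of EBF1 peaks with Brg1 (y axis, %) by bin of EBF1 fold within each list (x axis, 4 bins), for summits within 1 kb of a start (solid lines, circles) and farther away (dashed lines, triangles) in the dC and wt lines; bars are exact 95% intervals of counting error. In the dC line the near-start share was 70.9% to 88.6% and the distal share 22.7% to 71.0%.

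The summits were also arranged differently at starts. The median distance between EBF1 dC and Brg1 summits was 122 bp within 1 kb of a start (quartiles 46 and 265 bp, 1384 sites) and 51 bp farther away (22 and 120 bp, 3625 sites). Brg1 summits 0 to 50 bp to the higher-coordinate side of EBF1 made up 13.2% of sites near starts and 25.5% of distal sites. On the lower-coordinate side the shares within 50 bp were 14.2% and 23.9%. Median EBF1 fold at these sites was 9.90 near starts and 11.5 farther away, and distances were longer at lower fold. Distances at matched EBF1 fold were not computed, and the part of fold in this difference was not tested.

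**Figure D3:**
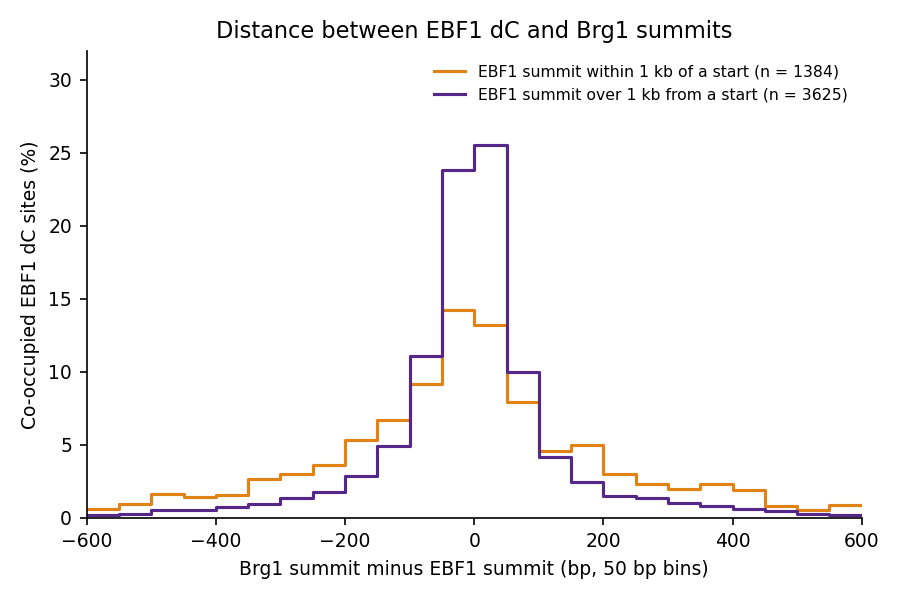
Distance from the EBF1 dC summit to the nearest Brg1 summit (x axis, bp, bins of 50 bp, plotted to 600 bp each way) as a share of co-occupied sites (y axis, %), near starts and farther away. Both curves centre on 0; the distal curve is the taller, with 25.5% of sites in its highest bin.

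Within 300 bp start windows holding a summit, 250 bases before and 50 after the start, the palindrome was more frequent where EBF1 dC had no Brg1. It was found at 31 of 92 EBF1 sites without Brg1 (33.7%, 24.2 to 44.3) and 52 of 549 with Brg1 (9.47%, 7.15 to 12.2). At Brg1 peaks without EBF1 it was in 3 of 2703 (0.111%), and 0.961% of all start windows held it. Below the median EBF1 fold the shares were 33.3% without and 3.56% with Brg1, and above it 34.3% and 13.6%. Most matches were at the summit, within 50 bp of it in 26 of the 31 and 45 of the 52. With co-occupancy defined by summits within 200 bp the shares were 19.3% and 9.57%, and with the shorter CCCNNGGG they were 62.0% and 51.0%, whose intervals overlap. Peaks outside start windows were not searched.

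Co-occupied sites of highest EBF1 fold were not within 1 kb of a listed start. The first was chr10:93198141-93198891 inside Cdk17, a cyclin-dependent kinase, with an EBF1 fold of 77.5, a Brg1 fold of 39.4 and summits 21 bp apart. A site inside Slc14a2, a urea transporter, followed with 76.4 and 54.1, and one inside Srd5a2, a steroid reductase, had 67.7 and 51.3. The other sites of this rank were nearest to Spata48, Med13l, Slc22a13, Actb, Tbc1d16, Pet117 and Dera, with EBF1 folds of 58.6 to 68.0 and Brg1 folds of 10.4 to 21.1. All 10 were called in the wt line by both antibodies, beside 82.2% of all co-occupied sites for Brg1 and 54.8% for EBF1. The sites at Cdk17, Slc14a2, Srd5a2 and Slc22a13 were in none of the 5 fetal liver Brg1 lists, as was so for 5.37% of all co-occupied sites.

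Ordered by Brg1 fold, B-lineage genes entered the top 10. A site inside Pax5, the factor that locks in B-cell identity, at chr4:44671005-44671395, had a Brg1 fold of 31.8 over an EBF1 dC fold of 9.31. It was not in the EBF1 wt list, while Brg1 was called there in the wt line at 16.2. The site at the start of Igll1, which encodes the surrogate light chain component lambda 5 (chr16:16863862-16864491), had a Brg1 fold of 25.1 and an EBF1 fold of 41.3, and that of Vpreb2, a gene of the other surrogate chain, 24.9 and 17.0. In the wt line Brg1 fold was 36.1 at Igll1 and 20.6 at Vpreb2. In fetal liver cells, Brg1 fold at the Igll1 site was 27.6 with wt EBF1, 26.3 with dC, 21.0 with dPLD and 20.7 with F-GATA3, and no peak was called there with the empty vector. Of these 10 sites 6 were in each of the 4 lists of cells with an EBF1 construct and 0 in the empty-vector list. Over all co-occupied sites the shares were 83.7% to 90.1% in those 4 lists and 35.3% in the empty-vector list.

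EBF1 dC also bound strongly without a called Brg1 peak. The highest such site lay inside Ciita (chr16:10522692-10523318), the master activator of MHC class II genes, with an EBF1 fold of 52.3 and the nearest Brg1 summit 2112 bp away. The next were nearest to Ubr2, Hand1, Dcaf5, Poln, Yeats2, Stx1a, Nab2, Maml1 and Rin3, with folds from 47.7 to 35.3. All 10 were in the EBF1 wt list, and 4 of them had Brg1 in the wt line, Ciita at 3.54, Hand1 at 6.42, Stx1a at 9.34 and Maml1 at 6.12. Over all EBF1 dC sites without Brg1 these shares were 31.2% and 22.6%. The strongest Brg1 peaks without EBF1 were nearest to Sag (29.2), Rere (25.3), Colq (21.8), Pon2 (20.6), Ppcdc, Sfi1, Nedd9, Lyn, Gimap4 and Cbfa2t3. All 10 of these were in all 4 fetal liver lists with an EBF1 construct and 8 in the empty-vector list. Over all Brg1 peaks without EBF1, each of the 4 lists held 77.8% to 87.5% and the empty-vector list 41.2%.

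Of 21883 protein-coding genes, 4151 (19%) had a co-occupied site in the gene or within 10 kb, 4583 (20.9%) an EBF1 dC site without Brg1 and 10402 (47.5%) a Brg1 peak without EBF1. Both proteins were present within 10 kb of another 2001 genes but never in overlapping peaks. Long genes have more room, and 24.6% of the longest of 3 length classes had a co-occupied site against 12.1% of the shortest. Msi2, an RNA-binding regulator of progenitors, had most co-occupied sites with 10, followed by Arhgef3 with 8, both chosen after their values were seen.

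The lists with the highest share of members near a co-occupied site were both of the B lineage. Such sites were found at 17 of 20 B-lineage transcription factor genes (median 1 site, against 0 over all genes), where 11 had EBF1 without Brg1. Of 17 pre-B-cell receptor and recombination genes, 13 had a co-occupied site (median 2) and 7 EBF1 without Brg1. The shares over all protein-coding genes were 19% and 20.9%, so both classes were more frequent in these lists. The median gene length was 58739 bp and 30251 bp in these lists against 17170 bp over all genes. Of 18 B-lineage surface and receptor genes 8 had a co-occupied site and 6 EBF1 without Brg1. Among the 8 was Bank1, a B-cell scaffold protein, with an EBF1 fold of 29.3 and a Brg1 fold of 10.1 at its strongest site by EBF1. Pax5 had 3 co-occupied sites, the strongest by EBF1 at 39.2 with a Brg1 fold of 12.0. Pou2af1, the B-cell coactivator OBF-1, had 1 near its start with 28.2 and 13.5. Vpreb1 counted the same sites as its neighbour Igll1. Ebf1 itself had 2 co-occupied sites, 7 with EBF1 alone and 18 with Brg1 alone. At Ikzf1, which encodes Ikaros, 14 Brg1 peaks lay without EBF1, the highest at 10.7, beside 1 co-occupied site. Spib, an ETS factor of B cells, had an EBF1 site without Brg1 at 25.5, outside the gene within the 10 kb. Brg1 was called at that site in the wt line at 5.67.

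Lists of other blood lineages ran from 1 of 14 to 4 of 12 members with a co-occupied site, beside 19% of all genes. Among 14 myeloid genes 1 had a co-occupied site, Itgam, the CD11b integrin, and 6 had EBF1 without Brg1 (20.9% over all genes). These 6 included Csf3r, the G-CSF receptor, with an EBF1 fold of 24.4. That site lay outside Csf3r within the 10 kb, 275 bp from a listed start. It had Brg1 in the wt line at 4.16 and in fetal liver dC cells at 7.99. Of 16 T-lineage genes 4 had a co-occupied site, among them Tcf7, which encodes TCF1, with 38.1 and 5.44 at its highest. Of 3 co-occupied sites at Notch1, the strongest by EBF1 had an EBF1 dC fold of 13.0 and a Brg1 fold of 16.9. It lay outside the gene within the 10 kb and was not in the EBF1 wt list. The counts were 1 of 12 innate lymphoid and NK genes (Id2), 2 of 10 erythroid and megakaryocyte genes (Klf1 and Nfe2) and 4 of 12 progenitor genes. Erg, a progenitor ETS factor, had the highest EBF1 fold of these, 54.8 with a Brg1 fold of 20.9. At Klf1 and Nfe2 the strongest site by EBF1 lay outside the gene within the 10 kb, 215 bp and 127 bp from a listed start. None of 10 stromal genes had a peak of any of the 3 classes within 10 kb, as was so for 43.1% of all protein-coding genes (9435 of 21883).

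The remodeller's own subunit genes were bound too. Of 16 BAF and PBAF genes, 8 had a co-occupied site, 3 EBF1 without Brg1 and 15 Brg1 without EBF1. The shares over all protein-coding genes were 19%, 20.9% and 47.5%. Among 14 ubiquitously expressed genes the counts were 6, 3 and 12. The median gene length was 45575 bp in the BAF and PBAF list and 4739 bp in the ubiquitous list. Arid1b, an alternative BAF subunit, had 7 co-occupied sites with an EBF1 fold up to 21.4. Arid1a, its paralogue, had 4, with 29.4 and 9.97 at the strongest by EBF1, which lay outside the gene within the 10 kb. Smarca4 had 3 co-occupied sites, with an EBF1 fold of 15.9 and a Brg1 fold of 6.88 at the strongest.

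**Figure D4:**
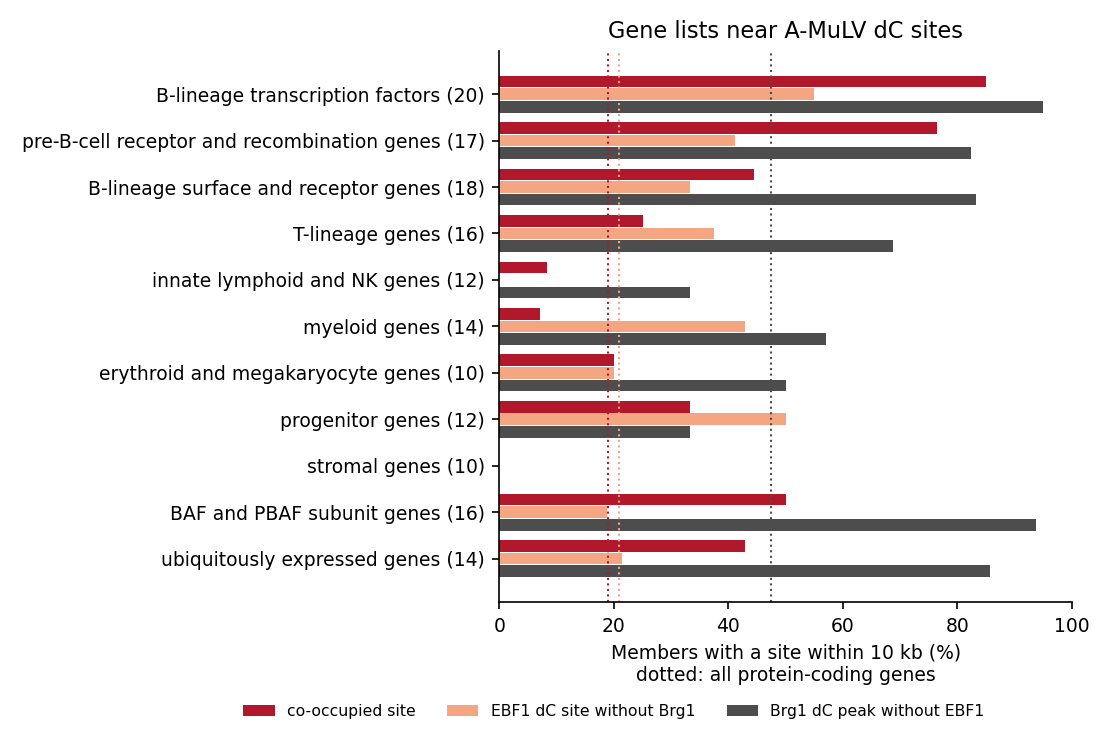
Share of the members of each gene list (x axis, %) with a site of each class within 10 kb; the number of members stands beside each list name, and dotted lines give the share over all protein-coding genes, 19%, 20.9% and 47.5%. The B-lineage transcription factor list had a co-occupied site at 17 of 20 members, and the stromal list none of any class.

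The wt line shared most co-occupied sites. Brg1 was called there at 82.2% of EBF1 dC sites with Brg1 (81.1 to 83.2) and 22.6% of those without (21.5 to 23.6), and EBF1 wt at 54.8% and 31.2%. At the 4693 EBF1 dC peaks that also had EBF1 wt, Brg1 was called in both lines at 2621, in the wt line only at 1012, in the dC line only at 196 and in neither at 864. At the 6454 peaks without EBF1 wt the numbers were 1603, 344, 718 and 3789. The balance between the lines was thus 1012 to 196 in the former and 344 to 718 in the latter.

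Brg1 in the dC line was more often called where EBF1 wt also bound, at 60.0% against 36.0%, but those peaks were also higher. Within the highest of 4 bins of EBF1 dC fold the shares were 77.8% and 53.8%, and within the lowest 25.1% and 30.3%, with overlapping intervals. Among EBF1 sites of both lines that had Brg1 in the wt line, Brg1 dC was called at 612 of 679 near starts (90.1%, 87.6 to 92.3) and 1939 of 2852 farther away (68.0%, 66.2 to 69.7). This gap depended on weak peaks, since the shares were 53.5% and 48.8% once −log10 q had to reach 10 and 29.3% and 38.8% once it had to reach 20, each pair with overlapping intervals.

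Most sites co-occupied in the line also carried Brg1 in fetal liver cells with each EBF1 construct, at 90.1% with wt, 89.8% with dPLD and 83.7% with F-GATA3. The fetal liver dC list had Brg1 at 87.8% of co-occupied sites (86.9 to 88.7), 23.5% of EBF1 sites without Brg1 (22.4 to 24.6) and 87.5% of Brg1 sites without EBF1 (87.0 to 87.9). With the empty vector the shares were 35.3%, 5.49% and 41.2%. That list is shorter, with 17687 peaks against 30301 for dC, and covers 19.6 Mb against 45.1 Mb. Fetal liver peaks were also wide, with a median of 1248 bp for dC and 978 bp for the empty vector. In the A-MuLV dC line the median Brg1 peak was 348 bp, and a wider peak has more bases to overlap. The fetal liver dC share at co-occupied sites did not follow EBF1 fold, with 88.5% in the lowest and 87.3% in the highest of 4 bins. At sites without Brg1 it was 19.9% and 31.1%.

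Peaks in all 4 lists with an EBF1 construct and absent from the empty-vector list made up 44.0% of co-occupied sites (42.7 to 45.4), 36.0% of Brg1 sites without EBF1 (35.3 to 36.7) and 11.7% of EBF1 sites without Brg1. Of the EBF1 sites without Brg1, 55.6% had Brg1 in none of the other 6 Brg1 lists, against 2.67% of co-occupied sites.

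**Figure D5:**
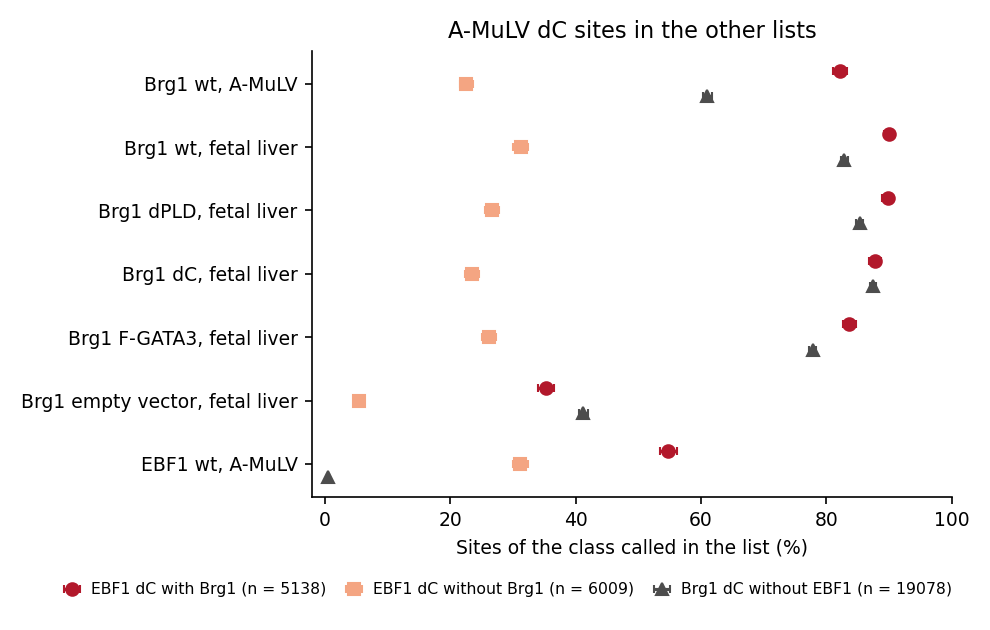
Share of co-occupied EBF1 dC sites, EBF1 dC sites without Brg1 and Brg1 dC sites without EBF1 (x axis, %) called in each of the other 7 peak lists; bars are exact 95% intervals of counting error. EBF1 sites without Brg1 were the least often called in each of the 6 Brg1 lists, from 5.49% with the empty vector to 31.3% with fetal liver wt.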

How the data were processed

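The 9 deposited narrowPeak lists were used, 1 per library. MACS2 2.1.2, Bowtie2 2.3.3.1, SAMtools 1.9, deepTools 3.3.1 and the build GRCm38 are named in the submitters' processing notes, without parameters. Which input served which library, how duplicates were treated and where peaks were cut off is not stated there or in the labels used. The deposited fold is the authors' ratio of ChIP pileup at the summit to local background. The deposited −log10 q value is the authors' for the summit. Reads, inputs and signal tracks were not analysed here, so the depth behind each peak is unknown.

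Overlap of at least 1 bp defined co-occupancy. Summit distances, shares with exact Clopper-Pearson 95% intervals and medians were computed in Python 3.11.15 with pandas 2.3.3, numpy 2.4.6 and scipy 1.17.1, and the scripts were tested on simulated data. Gene intervals (21883 protein-coding genes) and start windows came from RefSeq tables of GRCm38 patch 6. The start windows cover 17491 of these genes and leave out chromosome 18, so 129 co-occupied sites, 167 EBF1 sites without Brg1 and 457 Brg1 sites without EBF1 have no start distance. A start missing from the table makes a distance too long.

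Sites named in the text were the 10 highest, 1 per nearest gene, of each order given, and in each of 11 gene lists (159 genes) members with the highest fold of each class. Not all of the latter are printed. Sequences were windows holding both the summit and a motif match, list members first and then by fold, or, for Brg1 alone, the summit. The members and lists were chosen with earlier results of these data known. Alternatives covered overlap, q threshold, list length, gene window, start distance and motif.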

Additional observations from a re-analysis of the deposited data

How the results depend on the processing

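Each group had 1 library, which limits every comparison. No paired analysis was possible because no group had a second library. Values that moved beyond their counting interval follow, and the cause was not tested. EBF1 dC peaks with Brg1 were 43.9% when 50% of the shorter peak had to be shared, 36.7% with summits within 200 bp, 21.1% and 10.6% with −log10 q held to 10 and 20, 31.8% with lists of equal length and 59.4% with the EBF1 list as long as the wt list. Brg1 peaks with EBF1 were 20.2%, 16.8%, 40.8%, 54.5% and 31.6% under the first 5 of these. With −log10 q held to 20 or more, 80.9% of summits were within 100 bp, the gap in median EBF1 fold went from 3.34 to 5.75 and that in Brg1 fold from 1.15 to 0.69. Within 50 kb, 7647 genes had a co-occupied site. EBF1 sites without Brg1 were called in the fetal liver dC list in 24.8% under the 50% rule and 49.7% at 20 or more. The wt line had Brg1 at 80.4% of co-occupied sites under the 50% rule, and at 63.0% with and 11.6% without Brg1 at 20 or more. The share with Brg1 within 1 kb of a start was 52.3% with summits within 200 bp, 34.2% and 6.61% with −log10 q held to 10 and 20, and 84.7% within 500 bp. Over 1 kb away it was 33.8%, 18.6% and 11.6%. Where the wt line had Brg1, the dC share was 53.5% and 29.3% near starts and 48.8% and 38.8% away from them at 10 and 20. The motif difference, with minus without Brg1, was -24.2 percentage points, -9.71 with summits within 200 bp and -11.0 with CCCNNGGG. At 20 or more it was -15.9, from 0 of 18 windows with Brg1, which stayed within the interval of the value reported. The bounds of both exact intervals gave -20.1 to 6.32 for it. Alternatives on starts and motifs, and the EBF1 list as long as the wt list, were chosen after seeing the data. With summits within 200 bp, 3346 genes had a co-occupied site, within 1.5 times of 4151. Another 7 of 41 alternatives, with the motif difference at 20 or more among them, stayed within the interval of the value reported.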

Other observations

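The 276 co-occupied sites found in none of the 5 fetal liver Brg1 lists were 5.37% of all co-occupied sites (4.77 to 6.02). They made up 6.14% of the lowest and 3.70% of the highest of 10 bins of EBF1 fold among co-occupied sites, yet 4 of the 10 highest. Brg1 fold in the dC line at those 4 was 39.4 (Cdk17), 54.1 (Slc14a2), 51.3 (Srd5a2) and 17.3 (Slc22a13), and in the wt line 45.3, 18.1, 48.6 and 20.0. The site inside Paxip1, a BRCT-domain gene, was in no fetal liver list either and had a Brg1 fold of 37.0 in the dC line.

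Of the 55 genes in the 3 B-lineage lists, 5 held no peak of any of the 3 classes within 10 kb, against 43.1% of all protein-coding genes. These were Zfp521, Blk, Cd83, Ms4a1 and Il7r. At Rag1 and Rag2, which encode the recombinase, Rag2 had 1 co-occupied site with a Brg1 fold of 3.69 and Rag1 had 2 Brg1 peaks without EBF1. Dntt, which encodes terminal transferase, had 7 Brg1 peaks without EBF1, the highest at 11.9, and 1 EBF1 peak without Brg1 at 7.94.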
